A study of Homo sapiens with 6 samples.

Results

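The complex I genes of both genomes were followed in HaCaT cells, an immortalised aneuploid human keratinocyte line, after knockdown of IQGAP2, a scaffold protein of the IQGAP family. The members were all genes of the deposited table whose symbol starts with NDUF or MT-ND: 54 of 12829 genes. By symbol, 39 were nuclear subunits (NDUFA, NDUFB, NDUFC, NDUFS and NDUFV, with NDUFAB1), 8 were assembly factors (NDUFAF) and 7 were mitochondrially encoded subunits. The control group held 3 libraries of wild-type cells labelled normal control, and the knockdown group held 3 libraries of HaCaT cells labelled shIQGAP2. All cells were grown in serum-supplemented DMEM, and no drug or time point is given. The labels do not say whether the control carried a non-targeting hairpin, how many hairpins were used, or whether the knockdown line was 1 clone. They call the libraries biological replicates without saying that they came from separate cultures, and the spread that the p-values measure may therefore be technical.

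Complex I, or NADH:ubiquinone oxidoreductase, is the entry point for electrons from NADH into the mitochondrial respiratory chain. Its peripheral arm in the matrix passes electrons from NADH through a flavin and iron-sulfur clusters to ubiquinone, and its membrane arm pumps protons. The catalytic core is shared with bacterial enzymes and is divided between nuclear genes, which encode the peripheral part, and mitochondrial DNA, which encodes the hydrophobic part. The accessory subunits stabilise the core, and assembly factors build the enzyme from modules and then leave it.

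Expression was given as FPKM, that is, fragments per kilobase of gene, corrected for library depth. Below, the values of single libraries are given in the order of replicates 1, 2 and 3, and means are ± SD (n = 3). Log2 changes were taken as knockdown minus control of log2(FPKM + 1), so changes of low genes are understated. A gene was tested with limma where its mean was at least 0.5 FPKM, and called lower or higher at an adjusted p under 0.05. Of 11214 genes tested over the whole table, 27.8% were lower and 29.5% higher, together 57.4%, with a median change of 0.01, and the counts below are to be read against these shares. The reads recovered per library were 14035813 to 15207633 in control and 12970296 to 15443252 in knockdown. IQGAP2 had 24, 22 and 21 reads in control and 2, 4 and 2 reads in knockdown libraries. That is 0.200, 0.198 and 0.190 FPKM in control and 0.0196, 0.0328 and 0.0182 FPKM in knockdown libraries. The knockdown target was therefore low in control cells too, below the filter of 0.5 FPKM. All 10 keratinocyte markers were in the table, summing to 5099.9 to 5224 FPKM in control and 5150.2 to 5624 FPKM in knockdown libraries. Of the fibroblast, melanocyte, leukocyte and endothelial markers, 3 of 6, 2 of 6, 1 of 6 and 2 of 5 were in the table, and the highest sum of any of these lists in a library was 3.79 FPKM. Replicate 2 of the knockdown differed from replicates 1 and 3 by a chi-square per degree of freedom, over read counts, of 11.3 and 10.6, against 2.11 to 2.52 for all other pairs within a group, so results of the 3 classes are given with and without it. Rescaling each library to a common sum of FPKM raised the median change of all genes to 0.14 and the higher share of all calls from 51.5% to 72.6%, and results of the 3 classes are given under that scaling too. Mitochondrially encoded genes made up 15.3% to 16.2% of that sum in control and 7.97% to 9.22% in knockdown libraries. Their fall therefore enters this scaling. Under a common sum of nuclear genes alone, the median change of all genes was 0.049 and the higher share of all calls 58.2%.

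Every mitochondrially encoded subunit was lower in the knockdown: 7 of 7 fell, against 27.8% of all genes. In none did the groups overlap, where 29.6% of the 12829 genes did not overlap with the knockdown lower. The 7 genes lie on the same mitochondrial genome and share the 6 libraries, so they are not independent of each other. The median change was -0.97. It was -0.87 without knockdown replicate 2, -0.80 under the common sum and -0.91 under the common sum of nuclear genes alone. All 7 calls held in each of the 19 alternative settings. What remained ranged from 29.4% of the control level for MT-ND6 to 70.7% for MT-ND1. In bulk libraries fewer cells of a kind and less RNA per cell cannot be told apart.

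The largest falls were those of MT-ND6 and MT-ND4. MT-ND6 (ENSG00000198695, chrM:14149-14673, minus strand), a membrane subunit next to the junction with the peripheral arm, was at 1303, 1447 and 1421 FPKM in control and 439, 339 and 448 FPKM in knockdown libraries (log2 change -1.77, SE 0.101, adjusted p = 7.87e-07). It is the member encoded on the opposite strand to the others, and its highest knockdown library, at 448 FPKM, was far below its lowest control library, at 1303 FPKM. MT-ND4 (ENSG00000198886, chrM:10760-12137, plus strand), 1 of the antiporter-like proton pumping subunits, was the most abundant of the 7 at 4672, 4976 and 4842 FPKM in control and 2088, 1551 and 2072 FPKM in knockdown libraries (log2 change -1.36, SE 0.114, adjusted p = 9.57e-06). Knockdown replicate 2 was the lowest library for both genes, and without it the changes were -1.64 and -1.21.

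The other antiporter-like subunits, MT-ND5 and MT-ND2, and the small subunit MT-ND3 lay between these and the smallest falls. MT-ND5 (ENSG00000198786, chrM:12337-14148, plus strand) was at 1111, 1175 and 1140.0 FPKM in control and 549.9, 592 and 590.3 FPKM in knockdown libraries (log2 change -0.98, SE 0.0578, adjusted p = 1.05e-06). MT-ND2 (ENSG00000198763, chrM:4470-5511, plus strand) was at 1891, 1931 and 1971 FPKM in control and 1126, 852 and 1127 FPKM in knockdown libraries (log2 change -0.91, SE 0.103, adjusted p = 5.85e-05). MT-ND3 (ENSG00000198840, chrM:10059-10404, plus strand), whose loop lies near the quinone channel, was at 851, 1036 and 985 FPKM in control and 509, 428 and 534 FPKM in knockdown libraries (log2 change -0.97, SE 0.0955, adjusted p = 2.45e-05). The knockdown libraries retained 50.6%, 53.6% and 51.2% of the control mean, and knockdown replicate 2 was not the lowest library for MT-ND5.

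The smallest falls were those of MT-ND4L and MT-ND1. MT-ND4L (ENSG00000212907, chrM:10470-10766, plus strand), the smallest of these subunits, was at 323, 419 and 396 FPKM in control and 214, 245 and 251 FPKM in knockdown libraries (log2 change -0.67, SE 0.0946, adjusted p = 2.20e-04). MT-ND1 (ENSG00000198888, chrM:3307-4262, plus strand), which closes the quinone-binding cavity, was at 1597, 1715 and 1638 FPKM in control and 1241, 979 and 1279 FPKM in knockdown libraries (log2 change -0.51, SE 0.0981, adjusted p = 0.00149). These 2 genes kept 62.4% and 70.7% of their control means, and the call of MT-ND1 had the highest adjusted p of the 7.

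**Figure D1:**
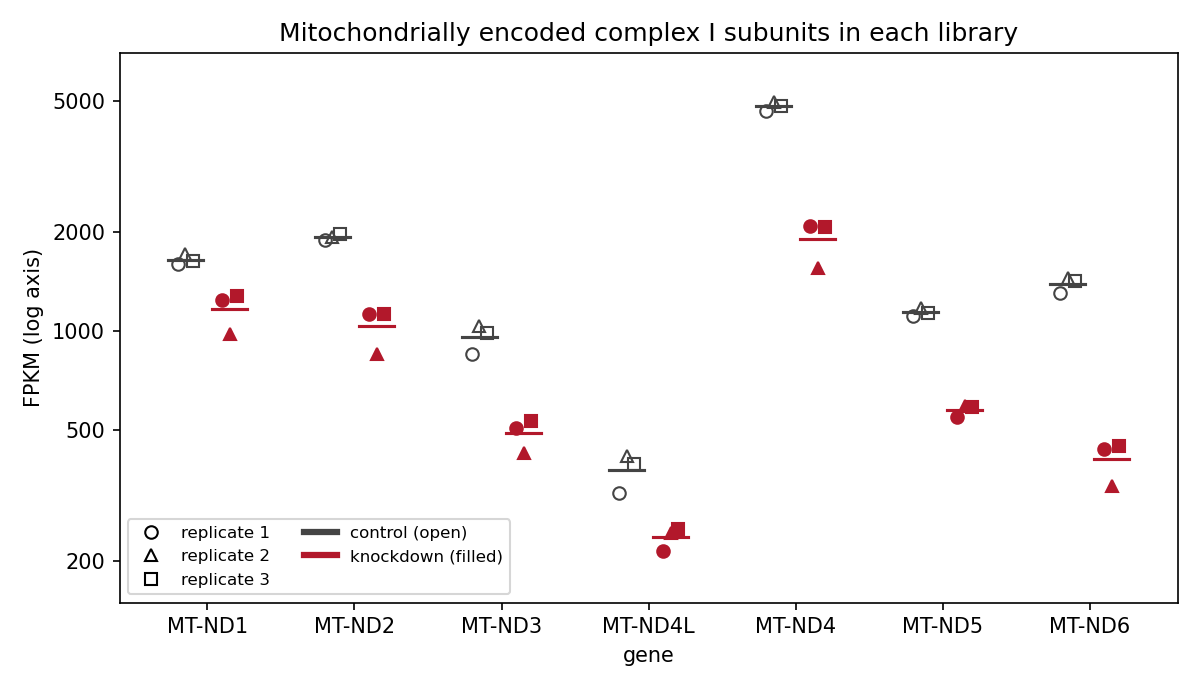
FPKM (log axis) of the 7 mitochondrially encoded complex I genes, in order along the mitochondrial genome, for each control (open) and knockdown (filled) library, with marker shapes for replicates and lines for group means (n = 3). All knockdown points lie below all control points of the same gene, and the gap is widest for MT-ND6, at 339 to 448 against 1303 to 1447 FPKM.

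Ratios between MT-ND genes, neighbouring or not, stood apart between the groups. MT-ND4L and MT-ND4 are carried on 1 bicistronic messenger RNA and share 7 bases, so the same bases are the end of 1 reading frame and the start of the other. The junction is shown because the 2 genes, read on 1 messenger, gave different values. In GRCh38 it lies at chrM:10742-10784 on the plus strand, with the shared bases in capitals:
MT-ND4L to MT-ND4 junction: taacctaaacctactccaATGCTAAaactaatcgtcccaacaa
The ratio of MT-ND4 to MT-ND4L, both in FPKM, was 14.4, 11.9 and 12.2 in control and 9.73, 6.34 and 8.25 in knockdown libraries, a mean of 12.9 ± 1.39 against 8.11 ± 1.70. The groups did not overlap (exact permutation p = 0.1, two-sided, the smallest that 3 libraries against 3 allow). MT-ND6 lies next to MT-ND5 on the opposite strand. Their ratio was below the control range in every knockdown library, at 1.17, 1.23 and 1.25 in control and 0.799, 0.572 and 0.759 in knockdown libraries (exact permutation p = 0.1). The ratio of MT-ND6 to MT-ND1 had the smallest SD of the 5 within the knockdown, at 0.816, 0.844 and 0.867 in control and 0.354, 0.346 and 0.350 in knockdown libraries (exact permutation p = 0.1), although replicate 2 was lowest in both genes. The ratio of MT-ND4 to MT-ND1 was 2.93 ± 0.0275 in control and 1.63 ± 0.0491 in knockdown libraries (n = 3, exact permutation p = 0.1). With the ratio of NDUFA4L2 to NDUFA4 given below, 5 ratios were tested, and the adjusted p of each was 0.1. The ratios of MT-ND4 to MT-ND4L and to MT-ND1 were chosen after their values were seen. Whether counting used strand is not given in the sources used here, so reads from the antisense strand of MT-ND6 cannot be told apart from its own.

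Nuclear subunits were mostly lower, with a smaller median change than the mitochondrially encoded ones. Of 39 in the table, 33 passed the filter on low values, and of these 24 fell, 1 rose and 8 did not pass the test, against 27.8% lower and 29.5% higher among all genes. The median change was -0.37, beside 0.01 for all genes. Without knockdown replicate 2 it was -0.29 with 22 lower and 1 higher, and under the common sum -0.22 with 19 lower and 1 higher, where 16.4% of all genes were lower. Under the common sum of nuclear genes alone it was -0.32 with 20 lower and 1 higher, where 23.7% of all genes were lower. Over all 39 genes, filter aside, the groups did not overlap with the knockdown lower for 24 and with the knockdown higher for 2, against 29.6% and 31.4% of the 12829 genes. Of the 25 calls, 17 held in every alternative run.

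In the nuclear core of the peripheral arm, NDUFV1, NDUFS8 and NDUFS3 fell and NDUFS1 did not pass the test. NDUFV1 (ENSG00000167792, chr11:67605653-67612554, plus strand), which binds NADH and the flavin, was at 67.3, 65.0 and 62.7 FPKM in control and 47.1, 40.7 and 46.5 FPKM in knockdown libraries (log2 change -0.53, SE 0.0604, adjusted p = 6.05e-05). NDUFS8 (ENSG00000110717, chr11:68030617-68036644, plus strand), an iron-sulfur subunit, was at 33.8, 35.7 and 37.1 FPKM in control and 26.6, 20.1 and 23.9 FPKM in knockdown libraries (log2 change -0.58, SE 0.0858, adjusted p = 2.84e-04). In both genes every knockdown library was below every control library. NDUFS3 (ENSG00000213619, chr11:47565336-47584562, plus strand), a subunit of the quinone-reducing module, was at 18.005, 18.3 and 17.8 FPKM in control and 12.8, 10.2 and 13.0 FPKM in knockdown libraries (log2 change -0.56, SE 0.0796, adjusted p = 2.36e-04). These 3 genes kept 66.1% to 68.9% of the control mean and NDUFS1 kept 100.2%, where the 7 mitochondrially encoded core subunits kept 29.4% to 70.7%.

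NDUFS1 (ENSG00000023228, chr2:206114817-206159603, minus strand), the largest core subunit and the carrier of most of the iron-sulfur clusters of the NADH module, was at 11.7, 12.2 and 11.7 FPKM in control and 11.2, 13.2 and 11.3 FPKM in knockdown libraries (log2 change -0.0007, SE 0.0672, adjusted p = 0.993), and the groups overlapped. Its transcript, at 11819 nucleotides, is the longest of all members, and its change was -0.24 (adjusted p = 0.00155) once the trend over length was removed. NDUFS7, which holds the last iron-sulfur cluster before ubiquinone, and NDUFV2, an iron-sulfur subunit of the NADH module, lay below the filter. NDUFS7 was at 0.255, 0.361 and 0.296 FPKM in control and 0.134, 0.251 and 0.260 FPKM in knockdown libraries, and NDUFV2 was at 0.363, 0.313 and 0.472 FPKM in control and 0.511, 0.596 and 0.265 FPKM in knockdown libraries. Both overlapped between groups, and both share coding sequence with other annotated genes, as described with the overlapping genes below.

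Among the accessory subunits of the peripheral arm, 5 of the 8 tested fell and none rose, with a median of -0.17. The median was -0.15 without knockdown replicate 2 and -0.030 under the common sum, where NDUFA5 and NDUFA6 lost their calls (adjusted p = 0.576 and 0.837). NDUFA2 (ENSG00000131495, chr5:140638740-140647785, minus strand), a small subunit with a thioredoxin-like fold, was at 4.01, 4.75 and 4.05 FPKM in control and 2.04, 2.63 and 2.68 FPKM in knockdown libraries (log2 change -0.61, SE 0.0942, adjusted p = 3.73e-04). NDUFS6 (ENSG00000145494, chr5:1801400-1816605, plus strand), a zinc-binding subunit, was at 85.4, 88.1 and 95.9 FPKM in control and 75.6, 59.1 and 73.7 FPKM in knockdown libraries (log2 change -0.37, SE 0.0864, adjusted p = 0.00432). NDUFA12 (ENSG00000184752, chr12:94897055-95003770, minus strand), a paralogue of the assembly factor NDUFAF2 that takes its place in the finished enzyme, was at 8.14, 7.53 and 7.93 FPKM in control and 6.40, 5.15 and 6.14 FPKM in knockdown libraries (log2 change -0.37, SE 0.0779, adjusted p = 0.00264). In these 3 genes the groups did not overlap, and in NDUFS6 and NDUFA12 knockdown replicate 2 was the lowest library. The calls of NDUFS6 and NDUFA12 were lost without knockdown replicate 2 where the length trend was removed too, and that of NDUFS6 with the length and GC trends removed (log2 change -0.14, adjusted p = 0.0522). NDUFA5 and NDUFA6 were called lower, with log2 changes of -0.19 and -0.15. The call of NDUFA5 was lost in 8 of 19 alternatives, among them those without each control replicate, and its change was -0.048 under the common sum and -0.078 with the length trend removed. The control and knockdown libraries of NDUFA6 overlapped. Its call was lost in 14 of 19 alternatives, and its change was 0.013 under the common sum and 0.025 with the length trend removed. NDUFS4, NDUFA9 and NDUFV3 did not pass (log2 changes -0.11, -0.081 and -0.072), and NDUFA7 lay below the filter. With the length trend removed, NDUFA9 passed as lower (-0.29, adjusted p = 0.007).

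The membrane arm held the largest nuclear falls: of 18 accessory subunits tested, 13 fell and 1 rose, with a median of -0.43. NDUFB6 (ENSG00000165264, chr9:32552999-32573184, minus strand), a subunit with a membrane-spanning helix, was at 26.3, 24.3 and 23.1 FPKM in control and 10.9, 9.93 and 9.89 FPKM in knockdown libraries (log2 change -1.18, SE 0.0626, adjusted p = 4.80e-07). NDUFS5 (ENSG00000168653, chr1:39026318-39034636, plus strand), which sits on the face towards the intermembrane space, was the most abundant nuclear subunit at 156, 165 and 159 FPKM in control and 80.9, 61.2 and 79.2 FPKM in knockdown libraries (log2 change -1.12, SE 0.0912, adjusted p = 7.87e-06). NDUFB7 (ENSG00000099795, chr19:14566078-14572062, minus strand), like NDUFS5 a protein with paired disulfides of the intermembrane space, was at 143, 130.4 and 142 FPKM in control and 81.1, 63.8 and 79.3 FPKM in knockdown libraries (log2 change -0.89, SE 0.0839, adjusted p = 1.91e-05). These 3 genes kept 41.7%, 46.1% and 54% of the control mean, and no knockdown library reached the control range. The other 10 that fell had log2 changes from -0.86 for NDUFB3 to -0.21 for NDUFB2, in the order NDUFB3, NDUFB4, NDUFA1, NDUFA3, NDUFA8, NDUFB5, NDUFA10, NDUFB9, NDUFB11 and NDUFB2. NDUFB9, NDUFB11 and NDUFB2 were lost in 7, 9 and 13 alternatives, and NDUFB11 had a change of 0.016 with the length and GC trends removed. NDUFB10, NDUFC1, NDUFA11 and NDUFB1 did not pass (log2 changes -0.26, -0.18, -0.11 and -0.091), and NDUFA13 and NDUFB8 lay below the filter. The median of the membrane arm was -0.39 without knockdown replicate 2 and -0.28 under the common sum. The difference between the arms was not tested.

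The member that rose was NDUFC2 (ENSG00000151366, chr11:78068304-78080219, minus strand), an accessory subunit of the membrane arm. It was low, at 1.08, 1.11 and 1.17 FPKM in control and 1.57, 1.96 and 1.37 FPKM in knockdown libraries (log2 change 0.31, SE 0.0914, adjusted p = 0.0155), from 38, 36 and 38 reads in control and 47, 70 and 44 reads in knockdown libraries. Every knockdown library was above every control library, but the call was lost with voom on the recovered reads and without control replicate 1, and the adjusted p ranged from 0.00507 to 0.0504 over the alternatives. Of its coding bases, 86.8% are also annotated as exon of the readthrough gene NDUFC2-KCTD14 on the same strand, so reads of the 2 genes cannot be told apart there.

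NDUFAB1 and the NDUFA4 pair were described apart from the arms. NDUFAB1 (ENSG00000004779, chr16:23581002-23596356, minus strand), the mitochondrial acyl carrier protein, which binds to both arms and also serves fatty acid synthesis, was at 50.7, 55.9 and 54.5 FPKM in control and 31.3, 29.3 and 31.6 FPKM in knockdown libraries (log2 change -0.79, SE 0.0522, adjusted p = 2.09e-06). NDUFA4 (ENSG00000189043, chr7:10931951-10940256, minus strand), named for complex I and now counted as a subunit of cytochrome c oxidase, was at 31.1, 30.7 and 31.2 FPKM in control and 19.8, 16.4 and 18.7 FPKM in knockdown libraries (log2 change -0.73, SE 0.0644, adjusted p = 1.25e-05). Both fell without overlap between groups. Its paralogue NDUFA4L2 (ENSG00000185633, chr12:57234903-57240715, minus strand), known as a gene induced by hypoxia, was near the lower limit of the table at 0.140, 0.202 and 0.355 FPKM in control and 0.493, 0.460 and 0.665 FPKM in knockdown libraries, from 6, 8 and 14 reads in control and 18, 20 and 26 reads in knockdown libraries. Its mean lay below the filter. In the fit without a filter its change was 0.32 (adjusted p = 0.01), and its groups did not overlap. The ratio of NDUFA4L2 to NDUFA4 was 0.00451, 0.00658 and 0.0114 in control and 0.0249, 0.0280 and 0.0356 in knockdown libraries (exact permutation p = 0.1).

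**Figure D2:**
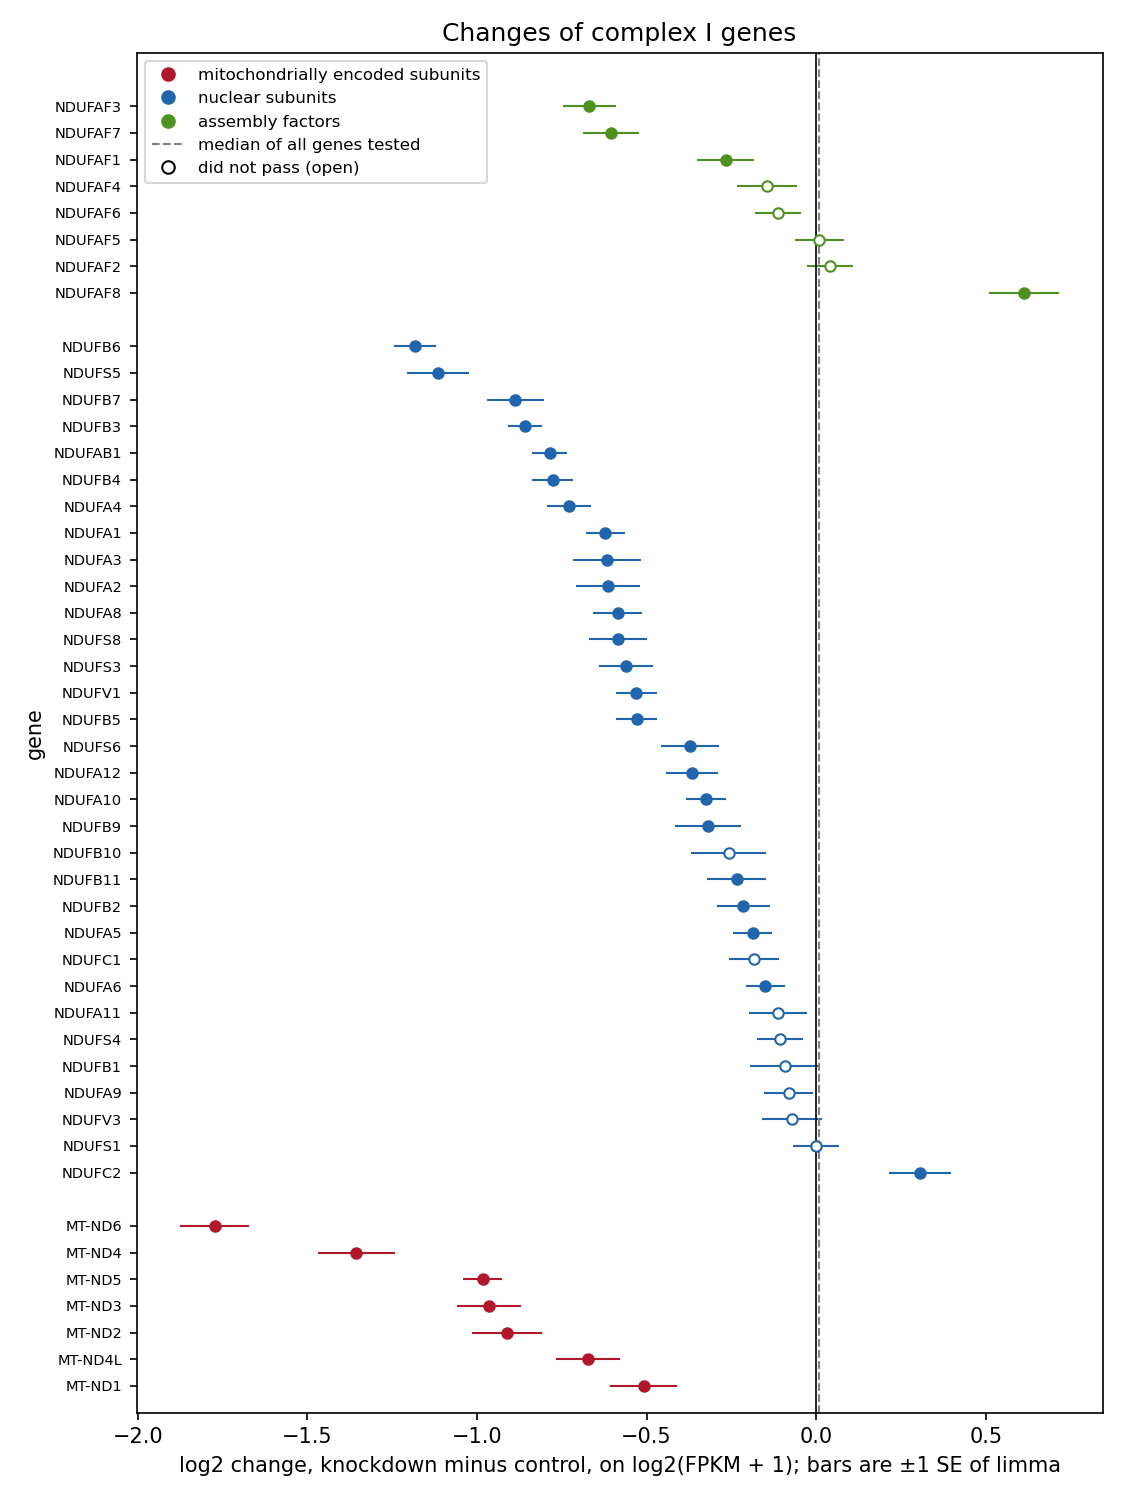
Log2 change (x axis, knockdown minus control on log2(FPKM + 1), with ±1 SE from limma, n = 3 per group) of 47 of the 48 complex I genes tested, grouped into assembly factors, nuclear subunits and mitochondrially encoded subunits. Filled points passed the test and open points did not, and the dashed line is the median of all genes tested, 0.01. Only NDUFAF8 and NDUFC2 among the filled points lie to the right of it.

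Assembly factors went in both directions. Of 8 tested, 3 fell, 1 rose and 4 did not pass, where 27.8% of all genes fell and 29.5% rose. The median was -0.13, and -0.10 without knockdown replicate 2, where the counts were the same. Under the common sum the median was 0.014, with 2 lower and 1 higher, so the sign of the class median depends on the scaling. NDUFAF3 (ENSG00000178057, chr3:49020459-49023495, plus strand), which acts with NDUFAF4 in building the quinone module, was at 8.66, 9.06 and 7.86 FPKM in control and 5.39, 4.49 and 5.11 FPKM in knockdown libraries (log2 change -0.67, SE 0.0771, adjusted p = 6.57e-05). NDUFAF7 (ENSG00000003509, chr2:37231631-37253403, plus strand), a mitochondrial methyltransferase that acts in assembly, was at 7.17, 7.70 and 7.90 FPKM in control and 4.09, 5.24 and 4.66 FPKM in knockdown libraries (log2 change -0.61, SE 0.0816, adjusted p = 1.66e-04). In both genes all knockdown libraries were below all control libraries. NDUFAF1 (ENSG00000137806, chr15:41387349-41402519, minus strand), a member of the complex that assembles part of the membrane arm, was at 6.48, 5.98 and 5.84 FPKM in control and 5.59, 4.37 and 4.78 FPKM in knockdown libraries (log2 change -0.27, SE 0.0832, adjusted p = 0.0191). Its call was lost in 7 alternatives, among them those without control replicate 1 and without knockdown replicate 3, with an adjusted p of up to 0.404.

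NDUFAF8 was the factor that rose. NDUFAF8 (ENSG00000224877, chr17:81239239-81241281, plus strand), a small partner protein that stabilises NDUFAF5, was at 15.2, 13.6 and 13.8 FPKM in control and 23.2, 18.4 and 25.8 FPKM in knockdown libraries (log2 change 0.61, SE 0.102, adjusted p = 6.27e-04). The lowest knockdown library, replicate 2, still lay above all control libraries, and the call held in all 19 alternatives, with an adjusted p of up to 0.00393. Its transcript is short, at 615 nucleotides, a length class in which 50.1% of all genes were lower. NDUFAF5 itself, the enzyme that hydroxylates NDUFS7, did not pass, at 5.09, 4.48 and 4.52 FPKM in control and 4.44, 4.72 and 5.02 FPKM in knockdown libraries (log2 change 0.0088, SE 0.0723, adjusted p = 0.925). NDUFAF4, NDUFAF6 and NDUFAF2 did not pass either (log2 changes -0.14, -0.11 and 0.041). With the length trend removed, NDUFAF2 passed as higher (0.24, adjusted p = 0.00826).

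The balance of the 2 genomes was set out per library, with no test because it sums over chosen members. The FPKM of the 39 nuclear subunits summed to 1273, 1277 and 1327 in control and 923, 780.5 and 906 in knockdown libraries. The FPKM of the 7 mitochondrially encoded subunits was 9.23, 9.95 and 9.34 times this sum in control and 6.68, 6.39 and 6.96 times in knockdown libraries. In every knockdown library both sums and their ratio were below the control range. Such sums weigh the most abundant genes most. MT-ND4, with a control mean of 4830 FPKM, kept 39.4% of it, while MT-ND1, with 1650 FPKM, kept 70.7%. The assembly factors summed to 60.7, 57.4 and 57.2 FPKM in control and 59.9, 52.3 and 61.4 FPKM in knockdown libraries, with overlapping groups. Of all recovered reads, the MT-ND genes took 1.31% to 1.39% in control and 0.545% to 0.683% in knockdown libraries. Against the control mean, the median log2 difference over the mitochondrially encoded subunits was -0.90, -1.15 and -0.84 in knockdown replicates 1, 2 and 3. Over the nuclear subunits tested it was -0.27, -0.55 and -0.32, and over the assembly factors -0.09, -0.18 and -0.15. The order of the 3 classes was the same in each knockdown library, and replicate 2 was the lowest for each class.

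**Figure D3:**
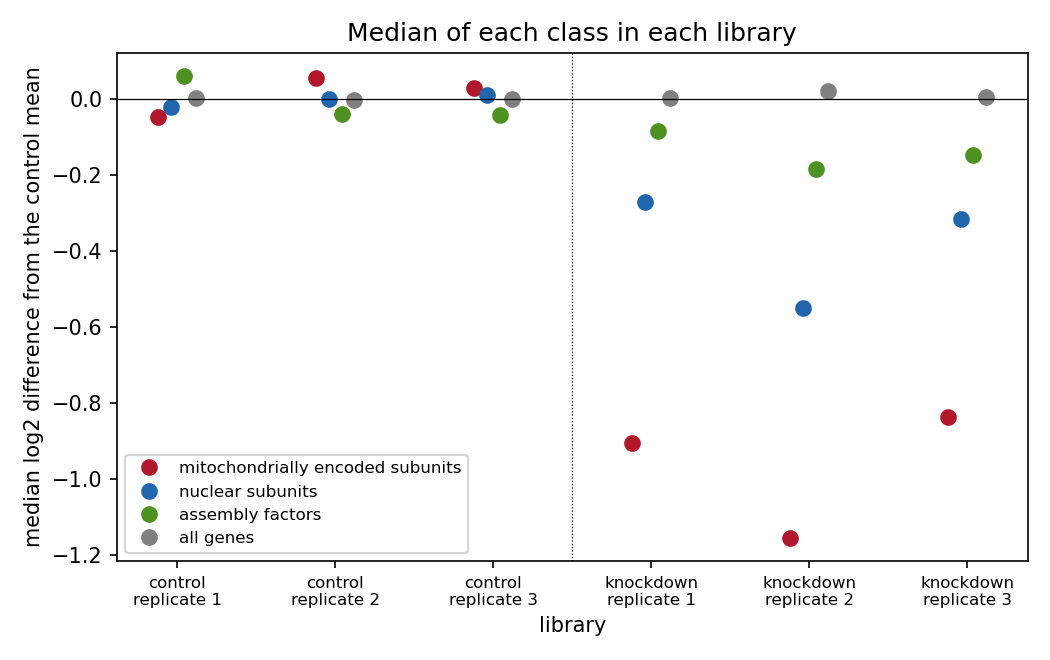
Median log2 difference from the control mean (y axis) over the members of each class and over all genes tested, for each of the 6 libraries (x axis). Control libraries lie near 0, the medians of all genes stay between 0.00 and 0.02 in the knockdown, and the mitochondrially encoded subunits reach -1.15 in knockdown replicate 2.

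The level of a nuclear subunit gene in this table went with its annotation. In GENCODE v29, 7 nuclear subunits have over 50% of their coding bases within exons of another gene on the same strand. They are NDUFA7, NDUFV2, NDUFA13, NDUFC2, NDUFA9, NDUFB8 and NDUFA11, at 100%, 100%, 98.4%, 86.8%, 85.1%, 83.9% and 74.0%. Their mean control levels were 0.145 to 1.12 FPKM. The 28 with under 5% of coding bases shared with any gene were at 0.232 to 159.9 FPKM with a median of 27.8, and all of these but NDUFA4L2 were at 4.74 FPKM or more. Over the whole table sharing on either strand went with low levels: 512 genes shared over 50% of their coding bases on the same strand, with a median control level of 1.04 FPKM, a further 120 shared over 50% with under 5% on the same strand, with a median of 1.11 FPKM, and 10413 genes shared under 5%, with a median of 6.23 FPKM. Partial sharing with genes on the opposite strand, at 45.4% for NDUFS7, 24.1% for NDUFB2, 18.8% for NDUFB9 and 18.2% for NDUFA2, went with 0.304, 2.11, 5.32 and 4.27 FPKM.

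All 7 encode structural subunits of the enzyme, and their values are given as those of this table, not as levels of the messenger. How the authors treated reads that fall on more than 1 gene is not given in the sources used here, and its part in these levels was not tested. Of these 7 genes, 4 were below the filter, NDUFA9 and NDUFA11 did not pass and NDUFC2 rose. The lengths behind the FPKM values, worked out from the size of 1 read, were also far above the coding length for some members, at 19359 bases for NDUFA10, whose coding sequence has 1065, and 16591 for NDUFB9, with 537. FPKM was therefore compared between libraries for 1 gene, and between genes only as the values of this table.

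**Figure D4:**
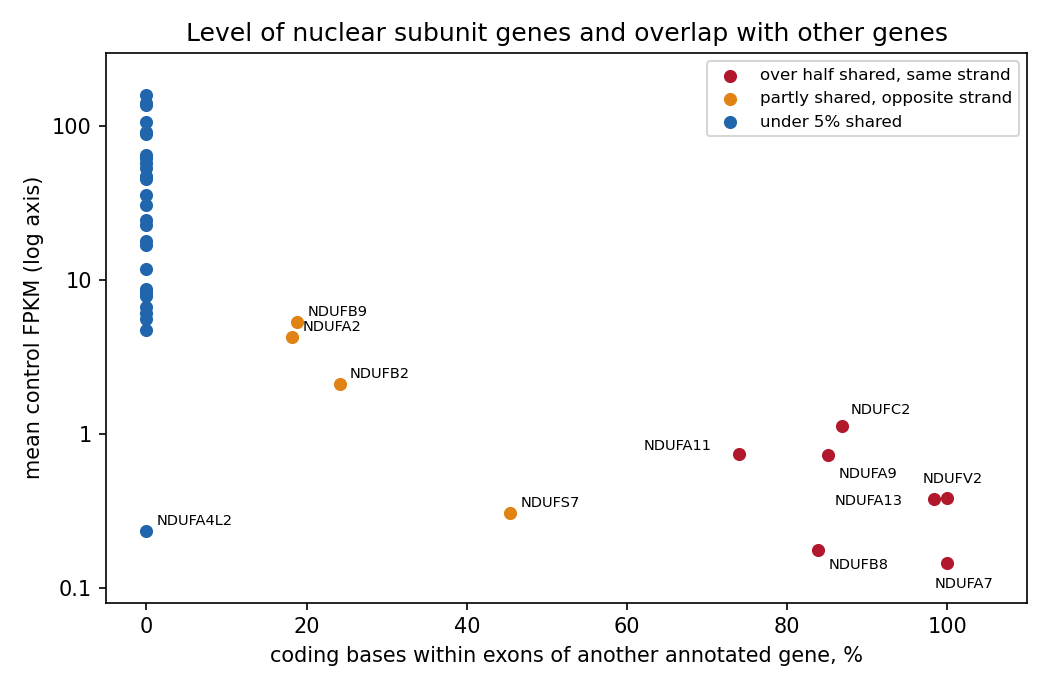
Mean control FPKM (y axis, log scale, n = 3) of the 39 nuclear subunit genes against the percentage of their coding bases that lie within exons of another annotated gene (x axis), coloured by the kind of overlap. The 7 genes with over 50% on the same strand lie at 0.145 to 1.12 FPKM, and among genes with no sharing only NDUFA4L2 lies that low.

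Most complex I transcripts are short, and short transcripts were lower over the whole table. The median change of all genes ran from -0.22 in the shortest decile of transcripts, of 207 to 1329 nucleotides, to 0.23 in the longest, and the share of lower genes from 50.1% to 7.94%. In the shortest decile lay 21 nuclear subunits, of which 16 were lower and 0 higher, with a median of -0.56 beside -0.22 for the 1122 genes of that decile. The 5 mitochondrially encoded subunits in it were all lower, with a median of -0.91. Across the 33 nuclear subunits tested, which share the 6 libraries, the log2 change had a Pearson r of 0.42 with log2 transcript length, -0.10 with GC content and -0.55 with the log2 control level, given as a description. Changes of low genes are understated on log2(FPKM + 1), so the r with the control level cannot show that abundant subunits fell more. With the trend over length removed in every library, 21 nuclear subunits were lower and 1 higher (median -0.34), against 28.4% of all genes lower, and all 7 mitochondrially encoded subunits were lower (median -0.82). The changes of the nuclear subunits with and without this step had an r of 0.93. NDUFS5, NDUFB6 and NDUFB7 had log2 changes of -0.93, -1.02 and -0.70 after it.

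**Figure D5:**
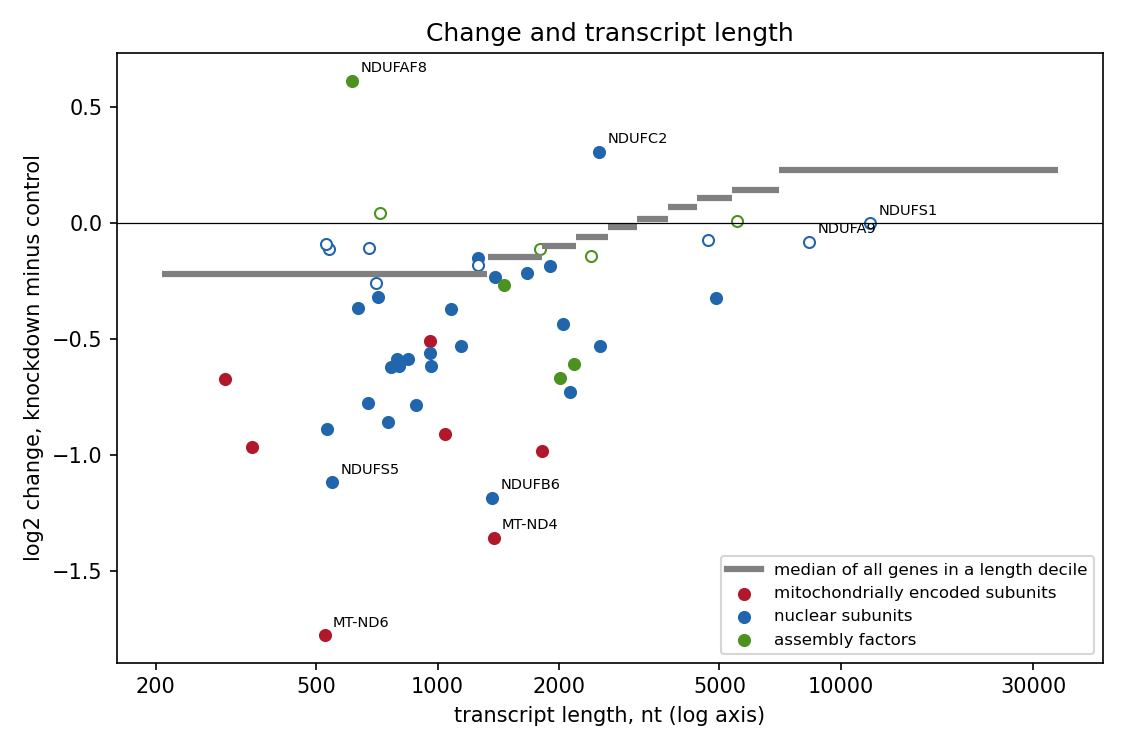
Log2 change (y axis, knockdown minus control) of the 48 complex I genes tested against transcript length in nucleotides (x axis, log scale), with grey bars for the median of all genes in each decile of transcript length and open points for genes that did not pass. The grey bars rise from -0.22 to 0.23, and most nuclear and all mitochondrially encoded subunits lie below the bar of their own length.

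Promoter sequences were set beside the changes for the nuclear members, since NRF1, the ETS factor GABP and YY1 are known regulators of respiratory genes. A RefSeq window of 250 bases before to 50 after a start (GRCh38.p14) was matched by symbol for 39 of the 47 nuclear members. Positions below count from 1 at the start base, with -1 before it. Motifs were searched on both strands, and a gene was counted where any of its windows held the letters. The NRF1 motif, a palindrome but for its middle that can match both strands at the same place, was in 7 genes, 17.9% against 13.0% of the 10310 genes of the table with a window. They were NDUFA3, NDUFA8, NDUFA9, NDUFA11, NDUFA12, NDUFB4 and NDUFAF5. The stretches of NDUFB4 (chr3:120596166-120596295, plus strand, positions -170 to -41) and NDUFA3 (chr19:54102675-54102704, plus strand, positions -180 to -151), which fell with log2 changes of -0.78 and -0.62, are shown as the holders with the largest falls, with matches in capitals. NDUFA3 has 2 matches in its window, of which the one farther upstream is shown, and NDUFB4 has a further match at positions -8 to 2 that is not shown:
NDUFB4: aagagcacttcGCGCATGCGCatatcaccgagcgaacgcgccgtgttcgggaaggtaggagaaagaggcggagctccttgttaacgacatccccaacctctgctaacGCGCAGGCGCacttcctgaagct
NDUFA3: ctgcgcgagtGCGCACGCGCaggctccgaa
Of the other holders, NDUFA8 and NDUFA12 fell with -0.59 and -0.37, and NDUFA9, NDUFA11 and NDUFAF5 did not pass.

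The ETS letters CCGGAAG were in 7 genes too, 17.9% against 22.2% of all genes with a window. They were NDUFA1, NDUFA13, NDUFB7, NDUFS1, NDUFS3, NDUFAF4 and NDUFAF8. NDUFB7 (chr19:14572067-14572146, minus strand, positions -80 to -1) and NDUFS3 (chr11:47578970-47578999, plus strand, positions -104 to -75) are shown as 2 subunits that fell, with the matches on either strand in capitals:
NDUFB7: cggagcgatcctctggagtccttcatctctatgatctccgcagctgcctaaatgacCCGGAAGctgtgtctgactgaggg
NDUFS3: cgCTTCCGGctccacgtccgcCCGGAAGaa
The same letters are in a window of NDUFA1, which fell with -0.62, of NDUFS1 and NDUFAF4, which did not pass, of NDUFA13, which lay below the filter, and of NDUFAF8, which rose.

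The YY1 letters AAGATGGCG, which share AAG with the ETS letters, were in 7 genes as well, 17.9% against 4.55% of all genes with a window. They were NDUFA6, NDUFA7, NDUFA9, NDUFB8, NDUFS4, NDUFS7 and NDUFAF8. The matches of NDUFS4 (chr5:53560649-53560678, plus strand, positions 11 to 40) and NDUFA6 (chr22:42090729-42090758, minus strand, positions 15 to 44) lie just after the start, and NDUFAF8 (chr17:81239307-81239336, plus strand, positions -11 to 19) holds an ETS and a YY1 match, all in capitals:
NDUFS4: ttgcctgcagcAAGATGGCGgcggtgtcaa
NDUFA6: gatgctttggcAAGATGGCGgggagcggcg
NDUFAF8: caCCGGAAGaggacggacctAAGATGGCGg
Of these 7 genes, 4 were tested: NDUFAF8 rose with 0.61, NDUFA6 was called lower with -0.15, a call that most alternatives lost, and NDUFS4 and NDUFA9 did not pass. A match describes letters in a window and is not a measured binding site, and windows without a match were not searched further.

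Other genes of the same pathway were counted from lists. Among 14 assembly factors of complex I without the NDUFAF name, 8 were lower and 0 higher (median -0.19), but 3 lower and 4 higher under the common sum, where 16.4% of all genes were lower and 43.4% higher, and 5 lower and 2 higher with the length trend removed. ECSIT, a partner of NDUFAF1, fell from 26.8 ± 0.477 to 16.8 ± 0.974 FPKM (limma log2 change -0.64, SE 0.0527, adjusted p = 8.12e-06). AIFM1, which supports the import of intermembrane space proteins, fell from 6.91 ± 0.177 to 4.48 ± 0.285 FPKM (limma log2 change -0.53, SE 0.065, adjusted p = 9.34e-05). These 2 calls held under the common sum.

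Most nuclear genes listed for the other complexes were lower too. In complex II, the succinate dehydrogenase, 3 of 3 tested were lower (median -0.51), with SDHB and SDHC at log2 changes of -0.61 and -0.51. The other gene of the 4 listed for complex II, SDHA, lay below the filter. In complex III 8 of 10 were lower (median -0.42), led by UQCRH with -0.75 and its near-identical copy UQCRHL with -0.68, between which the division of reads is uncertain. In complex IV 9 of 11 were lower (median -0.66), with COX7B and COX6B1 at -1.29 and -1.24, and in complex V, the ATP synthase, 16 of 17 (median -0.45), with ATP5MC1 and ATP5MC3 at -1.08 and -0.81. Under the common sum 7 of 10 were lower in complex III (median -0.27) and 11 of 17 in complex V (median -0.29), and the medians of complexes II and IV were -0.35 and -0.50. In the settings run for these lists no member of the 4 was called higher, except 1 of complex IV under the common sum, with the length trend removed and without knockdown replicate 2. The medians of the 4 lists lay from -0.66 to -0.42, each below that of the nuclear complex I subunits, -0.37. With the length trend removed those of complexes III and V, -0.29 and -0.32, lay above that of complex I, -0.34, and whether they differ from it was not tested. The complex I median counts NDUFA4 and low genes. Over genes of at least 5 FPKM it was -0.53, a filter under which the other lists are not given here. The 6 other mitochondrially encoded protein genes were all lower, with a median of -1.01 and log2 changes from -0.72 for MT-CYB to -1.45 for MT-ATP6. The fall of MT-ND6 was larger than this range, and those of MT-ND1 and MT-ND4L were smaller.

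Genes that transcribe and process mitochondrial RNA went in both directions. Of 24 tested, 12 were lower and 4 higher (median -0.16), and 6 lower and 7 higher under the common sum, against the same 16.4% and 43.4% of all genes. POLRMT, the mitochondrial RNA polymerase, was at 16.8, 17.3 and 16.3 FPKM in control and 12.6, 10.6 and 12.8 FPKM in knockdown libraries (log2 change -0.46, SE 0.0692, adjusted p = 3.54e-04). TFAM, which packages mitochondrial DNA and opens its promoters, was at 15.3, 14.8 and 14.6 FPKM in control and 16.9, 21.6 and 18.5 FPKM in knockdown libraries (log2 change 0.33, SE 0.0772, adjusted p = 0.00484). POLRMT thus fell while TFAM rose, both without overlap between groups. Both calls held under the common sum, where the median of all genes was 0.14, with changes of -0.30 and 0.48. With the length trend removed the changes were -0.50 and 0.20 (limma adjusted p = 2.38e-04 and 0.0161). SLIRP, which with LRPPRC stabilises mitochondrial messengers, was at 13.8, 17.9 and 17.3 FPKM in control and 11.2, 8.45 and 11.5 FPKM in knockdown libraries (log2 change -0.61, SE 0.117, adjusted p = 0.00142). LRPPRC was at 8.43, 8.36 and 8.23 FPKM in control and 7.23, 7.27 and 7.03 FPKM in knockdown libraries (log2 change -0.19, SE 0.0544, adjusted p = 0.012), and its call was lost under the common sum (adjusted p = 0.574). PNPT1, a mitochondrial exoribonuclease that also takes part in RNA turnover, rose from 19.7 ± 0.335 to 30.4 ± 2.04 FPKM (limma log2 change 0.60, SE 0.0549, adjusted p = 1.54e-05). Of 9 genes of mitochondrial DNA replication, 2 were lower and 0 higher (median -0.01), but 1 lower and 2 higher under the common sum (median 0.15) and 2 lower and 2 higher with the length trend removed. Lower before these 2 steps were DGUOK, a nucleoside kinase, with -0.61, and POLG, the replicative polymerase, with -0.29, a call that the common sum lost (adjusted p = 0.129).

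Of 10 regulators of respiratory gene transcription, 5 were higher and 2 lower (median 0.17), against 29.5% and 27.8% of all genes. With the length trend removed 3 were higher and 3 lower, near the 27.9% and 28.4% of all genes. Under the common sum 7 were higher and 0 lower, where 43.4% of all genes were higher and 16.4% lower. Without control replicate 1, and also without knockdown replicate 2, 3 were higher and 1 lower. Their median was 0.026 with the length trend removed, 0.10 without knockdown replicate 2 and 0.31 under the common sum. The median transcript length of these regulators was 4968 nucleotides, in a length decile where all genes had a median change of 0.11. MYC rose from 73.9 ± 1.88 to 125 ± 6.76 FPKM (limma log2 change 0.75, SE 0.0503, adjusted p = 2.36e-06). The factors behind the motifs above rose by less. YY1 went from 17.3 ± 0.468 to 21.4 ± 1.06 FPKM (limma log2 change 0.29, SE 0.0524, adjusted p = 0.00105). Its change was 0.12 with the length trend removed (limma adjusted p = 0.0365) and 0.45 under the common sum. GABPA, the DNA-binding part of GABP, went from 4.46 ± 0.562 to 5.75 ± 0.786 FPKM (limma log2 change 0.30, SE 0.103, adjusted p = 0.0276), and NRF1 from 4.59 ± 0.511 to 5.52 ± 0.428 FPKM (limma log2 change 0.23, SE 0.0839, adjusted p = 0.041). The calls of GABPA and NRF1 were lost without knockdown replicate 2 (adjusted p = 0.0733 and 0.0963), and that of GABPA with the length trend removed (adjusted p = 0.117). PPARGC1A was not analysed here.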

How the data were processed

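Per the labels' protocols, RNA of HaCaT cells was taken up in TRIzol and a TruSeq RNA kit was used for the libraries. The authors deposited 1 table of FPKM values with 3 control and 3 knockdown columns. HISAT2 2.2.1 and the GRCh38 build are named in the submitters' processing notes. The counting program, annotation and strand setting were not given in the sources used here. Each of the 12829 genes had a mean of at least 0.1 FPKM.

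limma 3.58.1 (R 4.3.3) was fitted to log2(FPKM + 1) of the 11214 genes averaging at least 0.5 FPKM, with group as the only factor, a mean-variance trend, two-sided tests and Benjamini-Hochberg adjustment over all genes tested. The fit and the recovery of reads were tested on simulated data. Whole reads came from the steps between FPKM values for all 12829 genes, within 0.004 reads. A divisor common to all 6 libraries was put back for 161 genes from GENCODE v29 lengths. Without molecular identifiers, reads are not independent molecules. The members and lists were chosen with earlier results of these data known. All members may be named but 1, which is not reported here and counts only in totals, with every library given for the MT-ND genes, the nuclear core, NDUFAB1, the NDUFA4 pair, members called against most of their class, and, of the other classes, the 3 largest falls and 2 largest rises. Of each other list the 2 largest changes are named, with TFAM, POLRMT, LRPPRC, PPARGC1A, NRF1, GABPA and YY1. Alternatives covered the pseudocount, filter, scaling, transcript length and GC (loess), the replicate block, voom on recovered reads and each library left out.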

Additional observations from a re-analysis of the deposited data

How the results depend on the processing

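The calls of all 7 mitochondrially encoded subunits, of 17 of the 25 nuclear subunits and of 3 of the 4 assembly factors held in each alternative run, 18 for NDUFA2, which lies under the filter of 5 FPKM, and 19 for the others. The edgeR and DESeq2 alternatives were not run, since the deposited values are FPKM, and voom on the recovered reads was used in their place, chosen after seeing the data, as was the length correction without knockdown replicate 2. The cause of the differences between settings was not tested. The median of the mitochondrially encoded subunits was -0.80 under a common sum of FPKM, -0.67 with quantile normalization, -0.82 with the length trend removed, also with the replicate block, and -0.79 with it removed and without knockdown replicate 2. The median of the nuclear subunits was -0.22 under the common sum and -0.53 over genes of at least 5 FPKM. The nuclear subunits called higher numbered 2 with no filter and 0 over genes of at least 5 FPKM, with voom and without control replicate 1. The median of the assembly factors was 0.014 under the common sum, -0.27 over genes of at least 5 FPKM and -0.053 with the length trend removed and without knockdown replicate 2, and 2 were called higher under each setting with the length trend removed.

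Leaving out 1 library at a time, 19 to 27 nuclear subunits were lower and 0 to 1 higher (median -0.44 to -0.29), 2 to 4 assembly factors were lower and 1 higher (median -0.17 to -0.09), and all 7 mitochondrially encoded subunits were lower (median -1.003 to -0.87). No pairing by replicate number showed in the values. Deviations of same-numbered libraries correlated at -0.07, -0.04 and 0.02, and no control replicate correlated best with the knockdown replicate of its own number. Every correlation lay between -0.07 and 0.08, so whether libraries were cultured or prepared in pairs cannot be told from them. With the replicate number as a block 23 nuclear subunits were lower and 1 higher, and the counts of the other classes were as without it.

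The sign turned for 11 members. Under the common sum the log2 change was 0.0045 for NDUFAF4, 0.023 for NDUFAF6, 0.15 for NDUFS1, 0.056 for NDUFB1, 0.013 for NDUFA6, 0.057 for NDUFS4 and 0.065 for NDUFV3. With the length trend removed, with or without the replicate block, it was -0.12 for NDUFAF5, 0.0085 for NDUFAF6, 0.077 for NDUFA11, 0.096 for NDUFB1, 0.025 for NDUFA6 and 0.094 for NDUFS4. With the length and GC trends removed it was -0.20 for NDUFAF5, 0.18 for NDUFA11, 0.083 for NDUFB1, 0.030 for NDUFB10, 0.016 for NDUFB11, 0.020 for NDUFA6 and 0.027 for NDUFS4. With the length trend removed and without knockdown replicate 2 it was -0.087 for NDUFAF5, 0.15 for NDUFB1, 0.032 for NDUFB10, 0.0019 for NDUFB11, 0.026 for NDUFA6 and 0.11 for NDUFS4. With quantile normalization the log2 change of NDUFAF5 was -0.017 and the log2 change of NDUFS1 was 0.0025. NDUFS1 was at 0.048 under a common sum of nuclear genes and at 0.0021 with voom. Leaving out 1 library at a time, NDUFAF5 ranged from -0.028 to 0.058, NDUFS1 from -0.073 to 0.038 and NDUFB1 from -0.16 to 0.029. Low reads limit NDUFA7, NDUFB8, NDUFS7, NDUFV2, NDUFA13 and NDUFA4L2, which were tested only with no filter.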

Other observations

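MT-ATP8, which encodes a small ATP synthase subunit and overlaps MT-ATP6 by 21.1% of its coding bases, stood far below every other mitochondrially encoded gene. It was at 6.34, 6.84 and 5.84 FPKM in control and 1.49, 4.68 and 2.77 FPKM in knockdown libraries, while its neighbour MT-ATP6 was at 2571, 2775 and 2679.8 FPKM in control libraries. The values of MT-ATP8 came from 20, 20 and 17 reads in control and 4, 15 and 8 reads in knockdown libraries. MT-ATP8 was called lower (log2 change -0.96, SE 0.229, adjusted p = 0.00496, limma). Knockdown replicate 2 was its highest knockdown library, whereas that replicate was the lowest for MT-ATP6, at 809 FPKM. With so few reads the order of the knockdown libraries for MT-ATP8 is uncertain. MT-ND4L, which shares 1.36% of its coding bases with MT-ND4, was at 323, 419 and 396 FPKM in control libraries. How reads that fall on both genes of such a pair were counted is not given in the sources used here.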
